A study of Caenorhabditis elegans with 12 samples.

Results

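The phospholipase C genes plc-1, plc-2, plc-3, plc-4 and egl-8 of the nematode Caenorhabditis elegans were followed across 12 single-colour oligonucleotide arrays, on which the platform's annotation names them for 10 of 22625 probe sets. A probe set is a group of short oligonucleotides read as 1 value for a gene. There were 4 probe sets for plc-1, 2 each for plc-2 and egl-8, and 1 each for plc-3 and plc-4, and each named 1 gene. Of these genes plc-1 was chosen by its low MAS5 signal in 1 of the 2 strains studied, so its strain difference is described here without a test. The other 4 genes were taken as its relatives, and the question was whether they differed between the strains too.

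The arrays carried biotin-labelled cRNA made from total RNA of worm lysates. The HLH strain (6 arrays) carried pRF4, a transformation marker, beside the reporter egl-15::gfp and the constructs pHS::hlh-8 with pHS::hlh-2, for the worm's Twist and E protein. The marker strain (6 arrays) carried egl-15::gfp and pRF4 alone. The design text names a heat shock arm and an untreated arm of each genotype, with 3 biological replicates, but no label ties an array title to an arm. Titles give a code, 1 and 2 in the HLH strain and 3 and 4 in the marker strain with 3 arrays each, and a set number from 1 to 3. The array titled 2_2 (2), of code 2, repeats a set number already in use and its set was treated as uncertain. All values below are therefore given by strain, code and set, and no array is called heat shocked. The labels used here give no stage or number of worms, no copy number or form of the constructs, and no statement on how many transgenic lines were used.

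Phospholipase C enzymes cleave the membrane lipid phosphatidylinositol bisphosphate into inositol trisphosphate (IP3), which releases calcium through the IP3 receptor, and diacylglycerol, which activates protein kinase C and related proteins. The family members differ in what switches them on. The product of egl-8 is a beta-type enzyme driven by the G protein Gq and acts in neurons and intestine, and plc-2 encodes a further beta-type enzyme. The product of plc-3 is gamma-type and acts downstream of receptor tyrosine kinases, that of plc-4 is delta-type, and that of plc-1 is epsilon-type and can bind Ras-family GTPases. In the worm plc-1 is best known from the spermatheca, where it and the IP3 receptor gene itr-1 are needed for normal ovulation.

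Values are MAS5 signals as deposited, an intensity on a linear scale that can be compared between arrays for 1 probe set but not between probe sets. The array medians lay between 180.3 and 208, and all arrays had the same trimmed mean of about 500.1 after the authors' scaling. The gene hlh-8, which the HLH strain also carries as a construct, read 707.7 to 4842.8 on the HLH arrays and 130 to 200.7 on the marker arrays. This follows the strain labels. Within the HLH strain it read 707.7 to 1359.5 at code 1 and 3793.5 to 4842.8 at code 2. The small heat shock gene hsp-16.41 read 30.2 to 127.1 at code 1 and 38.4 to 105.5 at code 3, against 4260.6 to 5233.5 at code 2 and 3789.4 to 5505.3 at code 4. Treatments were not assigned from such values, so the arrays keep their codes here. Arrays of set 2 stood apart from the others. Of 12328 probe sets bright enough to be tested, 42.2% differed between set 2 and the mean of sets 1 and 3, with adjusted p under 0.05 in limma. For comparison, 2.72% differed between the strains, 0.0406% between codes 1 and 2, and 0.0568% between codes 3 and 4. These smaller shares come from fits without a term for set, while the set 2 fit took code into account. With set in the fit and the array titled 2_2 (2) left out, 1731 probe sets differed between the strains, against 335 without. For codes 1 and 2 the counts were 6 against 5, and for codes 3 and 4 they were 19 against 7. In whole-worm RNA, fewer cells of a type and less RNA per cell cannot be told apart, and this holds for every difference below.

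The gene plc-1 was near the bottom of the signal range on every HLH array and above or close to the array median on every marker array with 3 of its 4 probe sets. For probe set 173954_at the signals at code 1 were 56.7, 36.9 and 23.2 in sets 1, 2 and 3. At code 2 they were 42.4 and 40 in sets 1 and 2, and 21.5 on the array titled 2_2 (2). In the marker strain they were 373.2, 273.2 and 234.4 at code 3 and 381.4, 286.3 and 241.2 at code 4, in sets 1, 2 and 3. Every marker array was far brighter than every HLH array, and the codes within each strain overlapped. The HLH signals stood at or under percentile 22.3 of all probe sets on their arrays, and the marker signals between percentiles 55.5 and 66.5.

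The other bright probe sets of plc-1 had the same separation. With 172720_x_at the HLH signals were 20.9, 47.9 and 8.5 at code 1 and 20.7, 8.8 and 16.8 at code 2. The marker signals were 308.8, 299.8 and 244.6 at code 3 and 307.5, 280.8 and 278.3 at code 4. With 172914_x_at the HLH signals ran from 9.9 to 19.3 and the marker signals from 176 to 280.2. The suffix x marks a probe set whose probes can also match other transcripts, while the third probe set, 173954_at, has no such suffix.

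**Figure D1:**
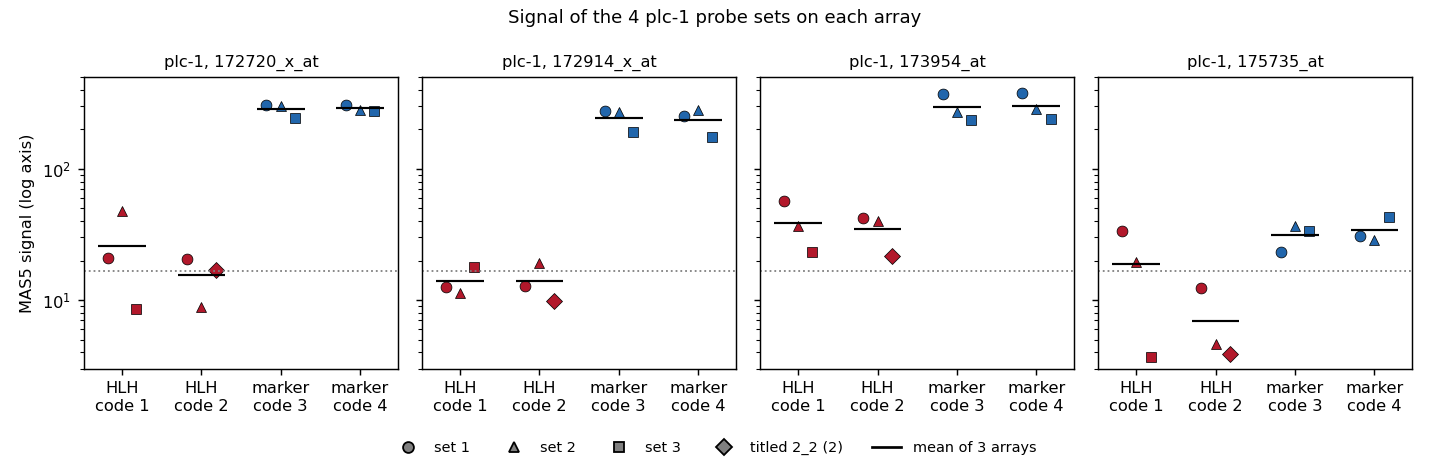
MAS5 signal (log axis) of the 4 probe sets of plc-1 on each of 12 arrays, by strain and code; symbols give the set, the bar is the mean of 3 arrays, and the dotted line is the signal of 16.7 to which lower values were raised before testing. With 3 probe sets all 6 HLH arrays lie below all 6 marker arrays, while 175735_at is dim everywhere and overlaps.

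On the log2 scale, with signals under 16.7 raised to that value, the HLH minus marker difference of plc-1 was -3.07 ± 0.31 (SE) with 173954_at, -3.74 ± 0.35 (SE) with 172720_x_at and -3.78 ± 0.39 (SE) with 172914_x_at. These are 8.42-fold, 13.3-fold and 13.7-fold differences. No HLH signal of 173954_at was at the floor, so its value is not held back by it, but 2 of 6 HLH signals of 172720_x_at and 4 of 6 of 172914_x_at were, and those sizes depend on the floor. With the floor at the 20th percentile of all values the differences were -2.58, -2.59 and -2.32. Within sets, 173954_at differed by -2.94 in set 1, -2.86 in set 2 and -3.36 in set 3, the last from 1 HLH array.

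The fourth probe set, 175735_at, was below its array's median on all 12 arrays and was not tested. Its HLH signals were 33.5, 19.4 and 3.7 at code 1 and 12.3, 4.6 and 3.9 at code 2. Its marker signals were 23.4, 36.8 and 33.3 at code 3 and 31, 28.8 and 42.9 at code 4. Of the HLH arrays 5 of 6 lay below the lowest marker array and 1 lay among the marker arrays. All its signals lay near the background, at or under percentile 18.5 of their arrays.

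In the marker strain, where plc-1 could be measured well, its signals lay further apart between sets than between codes. This is a description, as no set difference of plc-1 passed in limma. With 173954_at the 2 marker arrays of set 1 had a mean of 377 ± 5.8 (SD, n = 2), those of set 2 had 280 ± 9.3 and those of set 3 had 238 ± 4.8. With this probe set the marker arrays of the 3 sets did not overlap. The same held for 172720_x_at, with means of 308, 290 and 261 in sets 1, 2 and 3. With 172914_x_at sets 1 and 2 overlapped, with means of 265 and 275, and set 3 was lower at 183. How many of all probe sets separate the sets in this way was not counted. Set 3 differed from set 1 by -0.67 ± 0.17 (SE) in limma over the marker arrays alone, adjusted p = 0.057, which just missed the threshold of 0.05. The same difference was -0.54 ± 0.20 (SE) with 172914_x_at, adjusted p = 0.15, and -0.24 ± 0.18 (SE) with 172720_x_at, adjusted p = 0.47. Over both strains none of the 3 passed, and there the HLH arrays near the floor enter the estimate. Across the 6 marker arrays the log2 values of the 3 bright probe sets correlated with Pearson's r of 0.69 to 0.81. These r values describe 6 arrays that share sets in pairs.

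Codes made no detectable difference to plc-1 in either strain. From code 3 to code 4 the 3 tested probe sets differed by 0.05, 0.03 and -0.06, and the 95% interval of plc-1 173954_at ran from -0.92 to 1.01. From code 1 to code 2 they differed by -0.14, -0.51 and 0.04, values close to the floor, and in limma each adjusted p was 1. The intervals are wide, so for 173954_at changes of up to 2.0-fold in the marker strain are within them. That width comes from a fit without a term for set, whose spread is shared with the dim HLH arrays. With set in the fit and the array titled 2_2 (2) left out, this marker difference was 0.05 ± 0.29 (SE). Code 3 and code 4 signals of 173954_at lay close together within each set: 373.2 and 381.4 (set 1), 273.2 and 286.3 (set 2), 234.4 and 241.2 (set 3).

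Of the relatives, plc-2 was the gene with a strain difference, in the same direction as plc-1 but much smaller. With 194140_at the signals at code 1 were 402.6, 351.4 and 434, and at code 2 they were 487, 378.9 and 459.5. In the marker strain they were 521.1, 518 and 513.6 at code 3 and 638.1, 644.4 and 627.5 at code 4. All 6 HLH arrays lay below all 6 marker arrays, a separation that 1.70% of all tested probe sets had in this direction. The HLH mean was 419 ± 51 and the marker mean 577 ± 66 (SD, n = 6).

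The log2 difference of 194140_at was -0.46 ± 0.10 (SE), with a 95% interval of -0.69 to -0.24, a level 72.5% of that in the marker strain. It passed with an adjusted p of 0.032 in limma, 1 of the 6 tested probe sets of the relatives, where 2.72% of all tested probe sets passed and 1.59% passed as lower in the HLH strain. The call was close to the threshold. It was lost on leaving out any single array except HLH code 2 replicate 1 or HLH code 1 replicate 3, with adjusted p between 0.0516 and 0.0895, and without the set 2 arrays and the array titled 2_2 (2), at -0.34 and adjusted p = 0.35. Within sets the difference was -0.38, -0.66 and -0.39.

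The second probe set of plc-2, 194109_s_at, had the same size of difference with more spread. Its HLH signals were 268.2, 294.7 and 194 at code 1 and 213.3, 281.2 and 310.4 at code 2. Its marker signals were 358.3, 433.2 and 276.5 at code 3 and 332.9, 430.7 and 270.3 at code 4. The strains overlapped, although within each of sets 1, 2 and 3, with the array titled 2_2 (2) left aside, every HLH array was below every marker array. Set 3 held only 1 HLH array there. The array left aside read 310.4, above the set 3 marker signals of 276.5 and 270.3. How many of all probe sets separate within sets in this way was not counted. The log2 difference was -0.42 ± 0.17 (SE), adjusted p = 0.24. When set was added as a block, which drops the array titled 2_2 (2), it was -0.57 ± 0.10 (SE), adjusted p = 0.0038 in limma. In the same fit 194140_at was at -0.47 ± 0.10 (SE), adjusted p = 0.0083, so 2 of the 6 probe sets of the relatives passed. Of all tested probe sets 7.26% passed as lower in the HLH strain there, more than without the block.

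No strain difference was detected for plc-3, plc-4 or egl-8. For plc-3, probe set 193917_at, the HLH signals were 319.8, 287.2 and 289.3 at code 1 and 322.5, 255.6 and 369.5 at code 2. The marker signals were 307.6, 344.5 and 380.4 at code 3 and 368.1, 278.9 and 327 at code 4, and the strains overlapped over most of their range. The log2 difference was -0.12 ± 0.13 (SE), adjusted p = 0.71, with a 95% interval of -0.40 to 0.15.

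For plc-4, probe set 189046_s_at, the HLH signals were 769.6, 781.1 and 974.4 at code 1 and 738, 776.5 and 922.2 at code 2. The marker signals were 861.8, 916.3 and 975.7 at code 3 and 943.4, 911.1 and 905.5 at code 4. Of the HLH arrays 4 of 6 lay below the lowest marker array, and the remaining HLH arrays were the array titled 2_2 (2) and the set 3 array of code 1. The log2 difference was -0.16 ± 0.11 (SE), adjusted p = 0.52, with a 95% interval of -0.39 to 0.07. The order of its 4 code means, from 812 at code 2 to 920 at code 4, has no neighbours further apart than the larger of their SDs, which ran from 20 to 115.

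For egl-8 the probe sets pointed in different directions. With 175785_at the HLH signals ran from 412.2 to 579.9 with a median of 466.3, and the marker signals from 376.4 to 654.4 with a median of 498.9. With 191075_s_at they ran from 216.5 to 422.1 with a median of 290.85 in the HLH strain, and from 193.4 to 328.1 with a median of 256.5 in the marker strain. The log2 differences were -0.07 ± 0.14 (SE) and 0.27 ± 0.21 (SE), with adjusted p of 0.87 and 0.58. Over all 12 arrays these probe sets had a Pearson's r of 0.05, a description of arrays that share sets, so they did not move together. The suffix s marks a probe set whose probes can match several transcripts.

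**Figure D2:**
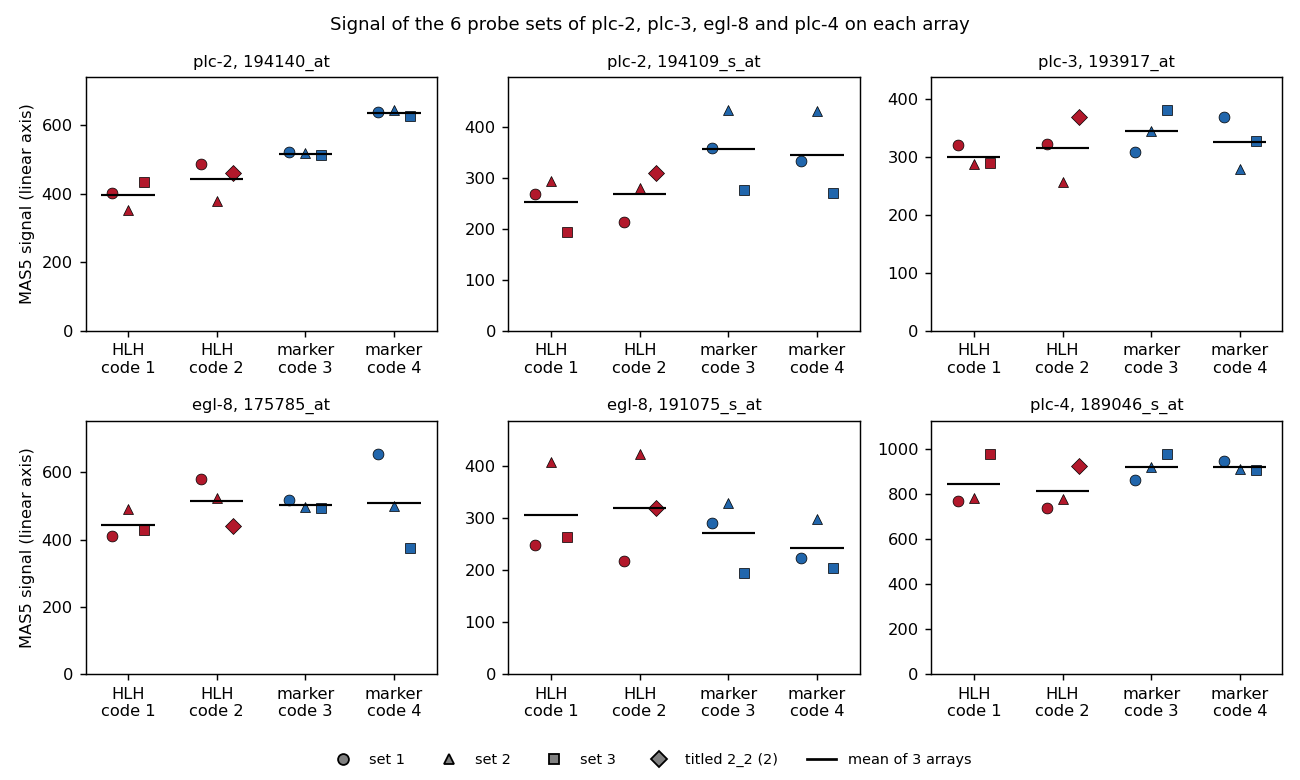
MAS5 signal (linear axis from 0) of the 6 probe sets of plc-2, plc-3, egl-8 and plc-4 on each of 12 arrays, by strain and code; symbols give the set and the bar is the mean of 3 arrays. The HLH arrays of plc-2 194140_at, up to 487, all lie below the marker arrays, from 513.6, while the strains overlap for the other 5 probe sets.

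The 95% intervals bound how far the relatives could have moved. The lowest bound among their 6 probe sets was -0.80, for plc-2 194109_s_at, and the highest was 0.72, for egl-8 191075_s_at. The lowest bound is far from the -3.07 of plc-1 with 173954_at. As plc-1 was chosen for its low HLH signal, this gap is a description and not a test. Of the 6 differences 5 were below 0, with a median of -0.14, beside a median of 0.05 over all tested probe sets.

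**Figure D3:**
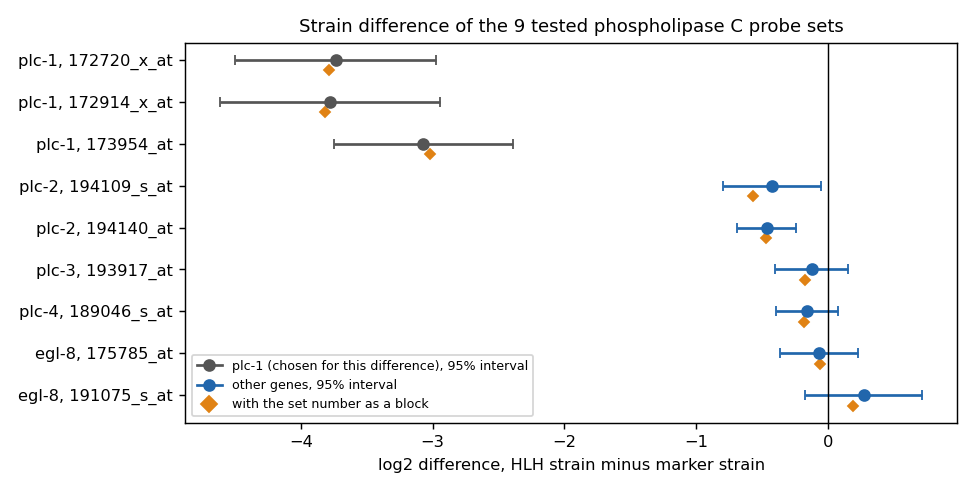
Log2 difference between the HLH and marker strains for the 9 tested phospholipase C probe sets, with 95% intervals from limma; diamonds give the value of the blocked fit. The values and intervals of plc-1, which was chosen for this difference, are a description only. The plc-1 values lie between -3.07 and -3.78, the plc-2 values at -0.42 and -0.46, and the intervals of plc-3, plc-4 and egl-8 include 0.

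Between codes, none of the 9 tested probe sets passed in either strain, and none had an unadjusted p under 0.05 in limma. The smallest unadjusted p was 0.30 between codes 1 and 2 and 0.062 between codes 3 and 4. The latter was plc-2 194140_at, at 518 ± 3.8 for code 3 and 637 ± 8.5 for code 4 (SD, n = 3). Its arrays of the 2 codes did not overlap, but how many of all probe sets separate in this way was not counted. Its log2 difference was 0.30 ± 0.15 (SE), with an adjusted p of 1 in limma. The SE comes from a fit whose spread is shared with the HLH arrays, which varied more for this probe set, with SDs of 42 and 56. With only codes 3 and 4 in the fit this probe set did not pass either, nor with set as a block, at 0.30 ± 0.13 (SE) and adjusted p = 0.66 in limma. At codes 1 and 2 its means were 396 ± 42 and 442 ± 56 (SD, n = 3), and these overlapped.

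Whether a code difference had another size in the HLH strain than in the marker strain was tested under both ways of matching the codes, taking the larger p. None of the 9 probe sets passed, the smallest unadjusted p being 0.49. None of all 12328 tested probe sets passed either (0%), with 11 at an unadjusted p under 0.05 in limma. Because a probe set had to differ under both matchings, this test could pass few probe sets. The gene hlh-8 did not pass, although it read 707.7 to 1359.5 at code 1 and 3793.5 to 4842.8 at code 2. No conclusion is therefore drawn from this test for the 9 probe sets.

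Set 2, which stood apart over the whole array, moved 2 of the 9 tested probe sets (22.2%), both higher, beside 42.2% of all tested probe sets in either direction and 24.8% as higher. Both were the s-type probe sets of genes with a second probe set. For egl-8 191075_s_at the set 2 signals were 407, 422.1, 328.1 and 298.3 at codes 1 to 4, against 193.4 to 289.2 on the 7 arrays of sets 1 and 3. These arrays did not overlap, but the array titled 2_2 (2), whose set is uncertain, read 318.6, within the set 2 range. How many of all probe sets separate by set in this way was not counted. It was higher in set 2 by 0.64 ± 0.14 (SE) on the log2 scale, adjusted p = 0.0030 in limma. For plc-2 194109_s_at the set 2 signals were 294.7, 281.2, 433.2 and 430.7, against 194 to 358.3 in the other sets. It was higher in set 2 by 0.48 ± 0.11 (SE), adjusted p = 0.0037.

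The partner probe sets of these genes did not pass with set 2. For egl-8 175785_at the difference was 0.06 ± 0.13 (SE), adjusted p = 0.75, and for plc-2 194140_at it was -0.13 ± 0.10 (SE), adjusted p = 0.32. After quantile normalization the plc-2 probe sets passed in opposite directions, at 0.34 with adjusted p = 0.025 and at -0.28 with adjusted p = 0.043. For plc-2 194109_s_at the set 2 difference was 0.49 in the marker strain alone and 0.47 in the HLH strain alone, with adjusted p of 0.019 and 0.14. For egl-8 191075_s_at it was 0.48 and 0.77, with adjusted p of 0.051 and 0.026. The values for plc-3, plc-4 and the 3 plc-1 probe sets were between -0.17 and 0.35 and did not pass. Between sets 3 and 1 none of the 9 probe sets passed, where 1.35% of all did, and 2 had an unadjusted p under 0.05.

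**Figure D4:**
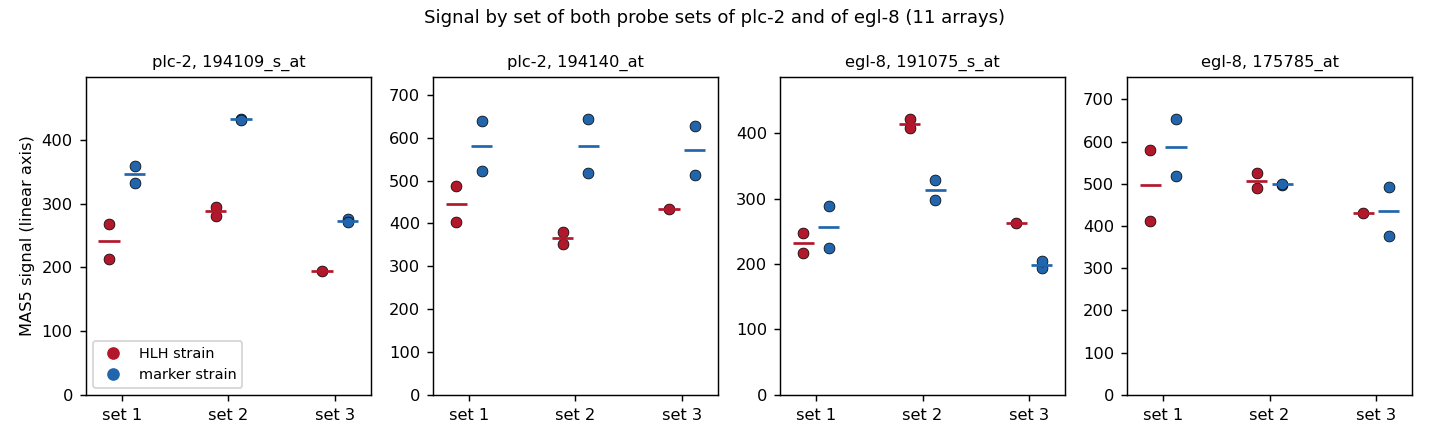
MAS5 signal (linear axis from 0) by set for both probe sets of plc-2 and of egl-8, on the 11 arrays with a known set; points are arrays, bars are means per strain. In both strains 194109_s_at and 191075_s_at have their highest mean in set 2, while each of 194140_at and 175785_at has it in set 1 in 1 of the strains.

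Genes that act with phospholipase C were read from 6 lists of 82 genes in all, of which 69 had a tested probe set of their own; each gene was represented by its brightest. Between the strains 1 of the 69 passed, as higher in the HLH strain, where 2.82% of all 9418 genes passed. That gene was ttx-7, a myo-inositol monophosphatase gene, at 2387 ± 216 in the HLH strain and 1702 ± 148 in the marker strain (SD, n = 6). The log2 difference of ttx-7 was 0.49 ± 0.10 (SE), adjusted p = 0.025 in limma. Its arrays of the 2 strains did not overlap, but the share of all probe sets that separate was counted only for HLH arrays below marker arrays (1.70%). The median difference of the 69 genes was 0.02, against 0.04 over all genes.

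By role, none of 10 genes for G protein inputs, 8 for EGF receptor, Ras and Rap inputs, 16 for IP3 and calcium, 9 for diacylglycerol and protein kinase C, and 6 other phospholipases passed between the strains. The GTPase genes rap-1 and rap-2 were at 0.11 ± 0.13 and 0.27 ± 0.28 (SE), with adjusted p of 0.73 and 0.71. The calcium pump gene sca-1 was at -0.22 ± 0.10 (SE) and the atypical protein kinase C gene pkc-3 at 0.34 ± 0.14 (SE), with adjusted p of 0.29 and 0.26. The phospholipase C-like gene pll-1 was at 0.25 ± 0.16 (SE), adjusted p = 0.48.

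In the blocked fit 5 of the 69 genes passed, 2 higher and 3 lower in the HLH strain, where 14.4% of all genes passed. The higher ones were ttx-7 at 0.54 and pkc-3 at 0.30. The lower ones were itr-1, the IP3 receptor gene, at -0.40 ± 0.12 (SE), the myotubularin gene mtm-3 at -0.40 and the phospholipase D gene pld-1 at -0.36. Their adjusted p in limma lay between 0.0015 and 0.049. For itr-1 the value without the block was -0.28 ± 0.22 (SE), adjusted p = 0.58.

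**Figure D5:**
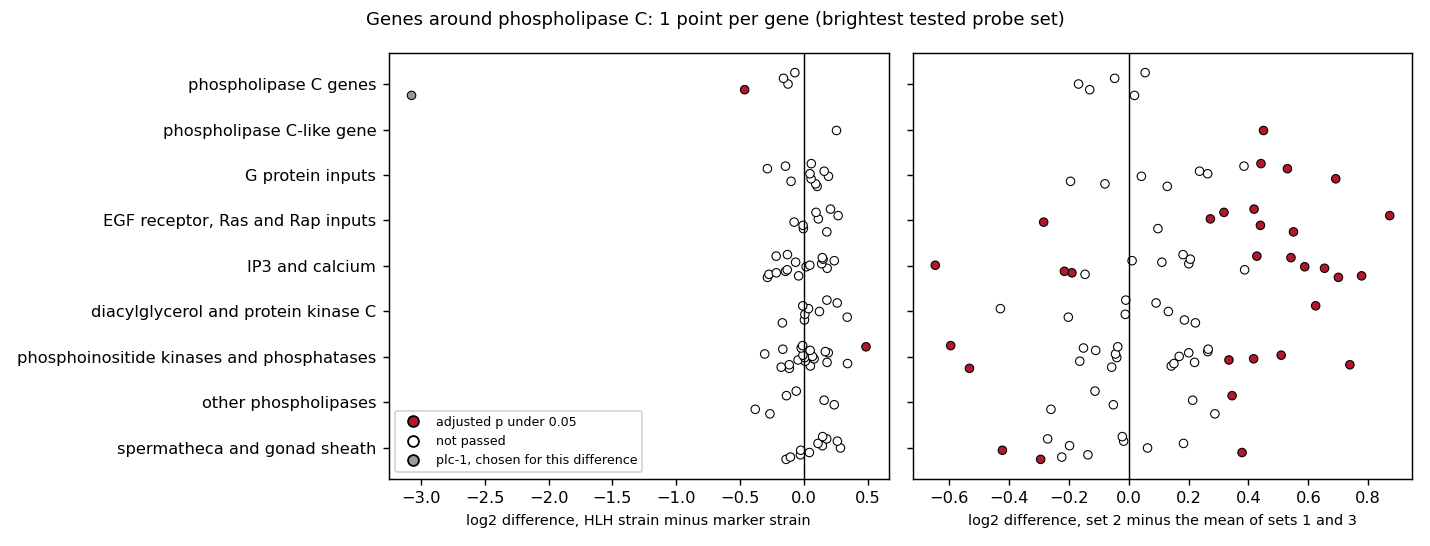
Log2 difference of each measured gene of the phospholipase C and related lists, 1 point per gene, between the strains (left) and between set 2 and the mean of sets 1 and 3 (right); filled red points have an adjusted p under 0.05 in limma, and plc-1 is grey on the left. Outside the phospholipase C genes 1 gene is filled on the left, ttx-7, while on the right 21 of the 69 pathway genes are higher in set 2 and 6 lower.

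With set 2 these genes moved about as often as all genes. Of the 69 genes 21 were higher and 6 lower in set 2, together 39.1%, against 41.8% of all genes. In the list of EGF receptor, Ras and Rap inputs 6 of 8 were higher and 1 was lower, among them rap-2 at 0.87 ± 0.16 (SE) and lin-3, the EGF ligand gene, at 0.55 ± 0.17 (SE). In the list for IP3 and calcium 6 of 16 were higher and 3 lower. The higher ones included the IP3 kinase gene lfe-2 at 0.78 ± 0.10 (SE) and itr-1 at 0.70 ± 0.13 (SE), and the lower ones included the calmodulin gene cmd-1 at -0.65 ± 0.08 (SE). None of the 5 phospholipase C genes passed with its brightest probe set.

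Tissue markers were read beside these results. Each list held at least 6 measured genes except that for sperm, with 1 of 9 bright enough. Between the strains no measured marker passed in the fit without the block. With it, 6 of 7 body wall muscle genes and 4 of 8 intestine genes were lower in the HLH strain, with list medians of -0.27 and -0.21, where 14.4% of all genes passed in either direction. Among them were the muscle myosin gene unc-54 at -0.31 ± 0.07 (SE) and the gut esterase gene ges-1 at -0.65 ± 0.09 (SE), adjusted p = 0.0098 and 0.00048 in limma. Of 6 hypodermis genes 2 were higher, and none passed among 11 spermatheca and gonad sheath genes, 7 germline and oocyte genes, 6 pharynx genes, 8 neuron genes and 1 sperm gene. The summed signal of the muscle list ran from 37848 to 45505 on HLH arrays and from 43828 to 57025 on marker arrays. That of the intestine list ran from 32479 to 46230 and from 36471 to 54413, and that of the spermatheca and gonad sheath list from 8329 to 9074 and from 7911 to 9247. No measured marker was listed at 0. In the list for the spermatheca and gonad sheath, the tissue in which plc-1 is best known, the median strain difference was 0.11. The part of muscle and intestine RNA in the plc-2 difference was not tested.

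With set 2, where 41.8% of all genes passed in either direction, the marker counts were as follows. Lower in set 2 were 4 of 8 intestine, 4 of 7 muscle and 3 of 6 pharynx genes, while 4 of 6 hypodermis genes were higher and 1 was lower. Of 8 neuron genes 1 was higher and 3 lower, of 7 germline and oocyte genes 2 and 2, and of 11 spermatheca and gonad sheath genes 1 and 2, and the 1 sperm gene was lower. The part of these tissues in the set 2 differences of egl-8 and plc-2 was not tested.

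The genes whose pattern over the 12 arrays was most like that of plc-1 173954_at were F43C11.3, ZC196.5, C24B9.3, hpo-18 and abl-1, with Pearson's r from 0.92 to 0.96. These r values describe arrays that share strain and set. As the genes were chosen by them, their strain differences are a description only. The signal of ZC196.5 was 1.9 to 13.8 on HLH arrays and 177.4 to 393.8 on marker arrays. The signal of abl-1, the Abelson tyrosine kinase gene, was 359 to 564.2 and 929.5 to 1808.6, and that of F43C11.3 was 86.4 to 176.1 and 368.3 to 564.8. The remaining genes, C24B9.3 and hpo-18, had smaller log2 differences of -0.88 and -0.64.

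The genes most like plc-2 194140_at were icl-1, T10B5.7 and zig-9, with r from 0.92 to 0.94. Each had HLH arrays all below its marker arrays. As plc-2 194140_at has that separation and chose these genes over the same arrays, this is a description only. Of these icl-1, which encodes the glyoxylate cycle enzyme, read 5709.6 to 10599.1 on HLH arrays and 11114.4 to 14116.8 on marker arrays. The most like plc-3 were R04F11.2, K02E11.7 and cox-6B (r 0.83 to 0.88), and the most like plc-4 were ccdc-47, glc-2 and idpp-15 (r 0.90 to 0.94). The most like egl-8 175785_at were M01E5.3, gmps-1 and T23E7.2 (r 0.85). None of these 9 genes had a strain difference that passed, and their strains overlapped. They too were chosen by likeness, to probe sets without a strain difference that passed, so this is no separate result.

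In the gene order of assembly WBcel235 plc-1 lies on chromosome X. Of 13 probe sets of its neighbours, with the wider list given below, 6 were tested. Of these, 0 passed between the strains in the main comparison. Of the 10 annotated genes nearest to plc-1 in that order, 5 on each side, only the 5 before plc-1 had probe sets of their own. The 5 that follow the start of plc-1 lie within plc-1. The signal of sma-9, a gene of body size and mesoderm patterning, was 1452.5 to 1839.4 on HLH arrays and 1207.9 to 2195.9 on marker arrays with 174615_at, and its log2 difference was -0.05 ± 0.15 (SE) with an adjusted p of 0.91. The gene T05A10.6 was at 0.00 ± 0.24 (SE), adjusted p = 0.996, and clc-4 was at -0.05 ± 0.20 (SE), adjusted p = 0.94. The dim genes ttr-14 and vap-2 were not tested, with signals of at most 90.6 on any array.

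Counting only protein-coding genes, a widening made after the data were seen, added C05A9.2 and the P-glycoprotein genes pgp-5 and pgp-8 after plc-1 and F31B12.3 within it. F31B12.3 was dim with all 3 of its probe sets, with signals of at most 78.2, and was not tested. C05A9.2, the nearest protein-coding gene after plc-1, was at 0.28 ± 0.13 (SE), adjusted p = 0.32. The next, pgp-5, was at -1.42 ± 0.40 (SE), adjusted p = 0.083, and passed in the blocked fit, adjusted p = 0.00031 in limma. In that fit 7.26% of all tested probe sets passed as lower in the HLH strain. Its signals were 62.8 to 221.4 on HLH arrays and 150.1 to 917.4 on marker arrays and overlapped. Its probe set is s-type and its neighbours are close relatives of it, so which of these genes it reads is uncertain. Its neighbour pgp-8 was dim, with medians of 92.85 and 94.15, and was not tested.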

How the data were processed

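Signals were deposited as array intensity on a linear scale, 1 MAS5 value per probe set and array; the tool is named per the submitters' processing notes, without version or settings. Because MAS5 subtracts background, its low values carry much noise. The deposited scaling was kept.

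Signals under the 10th percentile of all values, 16.7, were set to that floor before taking log2. After 77 control probe sets were left out, a probe set was tested if 3 or more of its 12 signals exceeded the median of their array. The 3 tested plc-1 probe sets passed this filter through the marker arrays alone. The 4 codes were fitted in limma 3.58.1 (R 4.3.3) with an intensity trend, and sets with code as a covariate on 11 arrays. Benjamini-Hochberg adjustment ran over all tested probe sets, tests were two-sided, and a call meant adjusted p under 0.05. Intervals are 95%. The fits were tested on simulated data.

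Members and lists were chosen with earlier results of these data known. Named were all members' probe sets, called list genes or else those with the smallest p (part of which are printed), the most similar genes and the neighbours of plc-1. Of the genes first listed, 1 is not reported here. Symbols came from the platform annotation, 20701 of them updated by gene ID. As no source used here names the genome build of the probes, the gene table (WBcel235) served for names and order only.

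Set numbers were taken to pair the arrays, without the array titled 2_2 (2). Deviations from the code means correlated between all 15 pairs of arrays of different codes with the same set number (r 0.31 to 0.79). Over the 30 pairs with different set numbers r ran from -0.69 to 0.53, with 8 over 0.1, so the ranges overlapped. The 12 arrays were not duplicates, with at most 0.27% of values identical between any pair. Alternatives varied the filter, floor, normalization, trend, block and arrays.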

Additional observations from a re-analysis of the deposited data

How the results depend on the processing

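The plc-1 difference, given as a description, lay between -2.32 and -4.13 over its 3 tested probe sets in 12 fits that each left out 1 array and 12 other settings. The number of relatives' probe sets passing between strains was 1. It was 2 with the set number as a replicate block, 0 with the arrays titled 2_2 and 2_2 (2) averaged, 0 without set 2 and the array titled 2_2 (2), 0 at each of the 4 single code pairings, and 0 to 1 with an array left out. Each of these sets fewer values against each other than the comparison over 12 arrays, and the block leaves out the array titled 2_2 (2). The plc-2 194140_at difference ranged from -0.24 to -0.69. The set 2 count was 2, and 1 with the array titled 2_2 (2) placed in set 3 (plc-2 194109_s_at, adjusted p = 0.052), 1 over marker arrays alone and 1 over HLH arrays alone, and 3 after quantile normalization, where plc-2 194140_at passed as lower. The block changed no member's call between codes. Of 954 alternative values of members, 70 differed in sign from the main value, none of them called. Over all probe sets the strain count was 335, and 49 to 1731 under alternatives; for codes 3 and 4 it was 7, and 4 to 19; for codes 1 and 2 it was 5, and 3 to 6; for set 3 it was 166, and 2 to 688; for set 2 it was 5202, and 1621 to 5568. The causes were not tested. Signals near the background limit plc-1 in the HLH strain and 175735_at on all arrays.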
